A study of Caenorhabditis elegans with 2 samples.

Results

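The genes described here are the nuclear tRNA genes of Caenorhabditis elegans that make the transfer RNAs for phenylalanine (Phe), tyrosine (Tyr), tryptophan (Trp) and cysteine (Cys). They were taken from the RefSeq annotation of build WBcel235 (ce11) by biotype and product, without use of any measured value, and number 58 of 612 nuclear tRNA genes: 14 for Phe, 19 for Tyr, 12 for Trp and 13 for Cys. Binding of the protein B0261.1 was mapped by chromatin immunoprecipitation with sequencing (ChIP-seq). There was 1 group of 2 biological replicates, numbered 1 and 3, and no other condition. Both came from strain OP662, genotype unc-119(tm4063) III; wgIs662, in which a stable transgene encodes B0261.1 with GFP and FLAG fused to its C-terminal end. Precipitation used an antibody to GFP per the sample descriptions, while the antibody field names B0261.1. The material was whole young adults of pooled sexes, 64 hours after synchronisation as starved L1 larvae. All animals carried the same transgene insertion, and signals of all tissues are pooled, so no cell type can be named. Control libraries were not analysed here.

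RNA polymerase III transcribes tRNA genes from a promoter that lies inside the gene. The factor TFIIIC binds the internal A and B boxes and places TFIIIB just upstream of the start, and a run of T ends the transcript. Tyr tRNA genes carry a short intron next to the anticodon, which an endonuclease cuts out before a ligase joins the ends. Trp tRNA genes are known in this worm as suppressor loci: at sup-5, sup-7, sup-21, sup-24, sup-28, sup-29 and sup-33 a mutated anticodon lets the tRNA read an amber stop codon.

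The commonest gene sequences for Phe and Tyr are shown first, each from its gene of highest signal, because most members are copies of a few sequences. Capitals mark the anticodon, and the sequences are from RefSeq, build WBcel235, 5′ to 3′. T28B4.t1 lies at chrX:6593596-6593668 on the plus strand and R11.t1 at chrX:16209769-16209852 on the minus strand.
T28B4.t1 (Phe): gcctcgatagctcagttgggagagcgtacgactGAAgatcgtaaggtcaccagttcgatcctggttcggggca
R11.t1 (Tyr): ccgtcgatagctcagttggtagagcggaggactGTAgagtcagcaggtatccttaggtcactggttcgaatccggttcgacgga
The anticodon followed a T in 58 of 58 members. Among the 58 genes only 21 different gene sequences occurred, 4 for Phe, 12 for Tyr, 3 for Trp and 2 for Cys. The Phe genes were 73 bp long and the Trp and Cys genes 72 bp. The Tyr genes were 84 bp in 17 cases, with R148.t1 at 82 bp and F36D4.t1 at 87 bp.

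The internal promoter was near complete in these genes by sequence. The B box, searched on the strand of the gene as GNTCNANNC with A or T for its first N and A or G for the N after TC, was present in 58 of 58 spliced sequences and in 544 of 554 other tRNA genes. It occurred in 1.41% of 73-base windows of the genome. An A box match lay in the spliced sequence of 57 of 58 members and 536 of 554 other tRNA genes (3.76% of genome windows). It began at position 8 in 56 members. The exceptions were F49C5.t1 (Trp), with no match, and R148.t1 (Tyr), with a match at position 15. That match lies in letters that R11.t1 also carries, further in. At the R148.t1 site aligned to position 8 the first T is a G, so the A box is changed there. A run of TTTT lay in the 25 bases after 57 of 58 members and 547 of 554 other tRNA genes (31.2% of 25-base windows), starting 1 to 7 bases after the gene with a median of 5. The member without it was Y95D11A.t1 (Phe). The letters AGTGGT occurred in 12 of 12 Trp genes and in none of the other 46 members, against 259 of 554 other tRNA genes (1.16% of genome windows). These windows and genes were read on 1 strand.

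The authors' final list held 1550 peaks, chosen by the irreproducible discovery rate (IDR), which scores how well replicates agree. The longer lists held 30000 pooled regions, 23931 regions of replicate 1 and 30000 of replicate 3. Each region has a summit and the authors' signal, whose scale is not stated and differs between lists, so that levels are compared only within a list. The lists give no read depth. A gene is called occupied where an IDR summit lay within 100 bp of it, and the strongest such summit gives its signal and position. Nothing in the labels beyond the replicate number separates the cultures, so the spread between the replicates may be partly technical. Genes of 1 library are not replicates, and no test was run over them.

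Most members were occupied, and their signal was near that of other tRNA genes. Of the 58 members, 52 were occupied (89.7%, 95% Wilson interval 79.2 to 95.2%), against 472 of the 554 other tRNA genes (85.2%, interval 82.0 to 87.9%); over all nuclear tRNA genes the share was 85.6%. The count was 12 of 14 for Phe, 16 of 19 for Tyr, 12 of 12 for Trp and 12 of 13 for Cys. Among the 1550 regions of highest signal in each replicate's own list, 49 members had a summit in replicate 1 and 49 in replicate 3 (84.5% ± 0, SD, n = 2), where all tRNA genes had 84.6% and 85.6%. They were the same 49 genes, and over all tRNA genes 82.7% were found in both. The occupied members outside that number were F12D9.t6, F22B7.t4 and C06B8.t2. The median IDR signal was 2471 over the occupied members (375 to 6664) and 2604 over the other tRNA genes (197 to 15652), a ratio of 0.949. The same ratio was 1.01 in replicate 1 and 0.948 in replicate 3, so the side on which the members fell was not the same in both. Of the 52 occupied members 51 were among the 775 IDR peaks of highest signal. Most other occupied tRNA genes were there too, since their 25th percentile was 1648 and the median of all IDR peaks was 504. Among the highest 155 were 11 of the 52 members and 120 of the 472 other occupied tRNA genes.

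**Figure D1:**
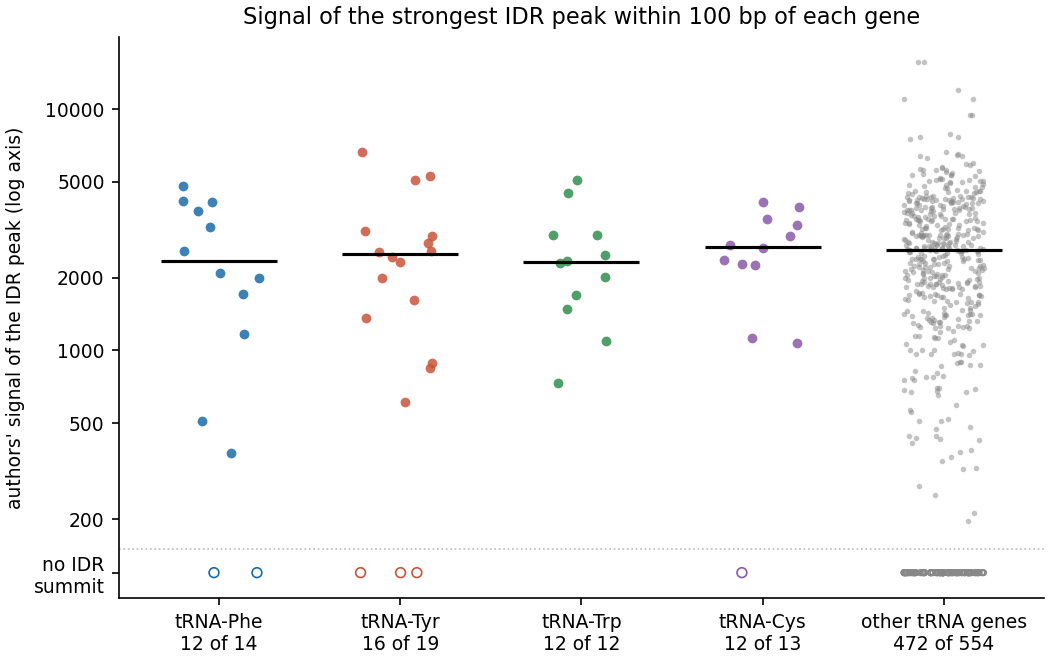
Authors' signal (log axis) of the strongest IDR peak within 100 bp of each gene, with 1 point per gene, for the 4 amino acids and the other tRNA genes. Lines are medians over occupied genes (2346, 2508, 2334 and 2694 for Phe, Tyr, Trp and Cys, and 2604 for the others), open circles at the bottom are genes without an IDR summit, and the 4 sets overlap one another and the other tRNA genes.

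Across amino acids the medians were close and the ranges wide. The median signal was 2346 for Phe (375 to 4828), 2508 for Tyr (614 to 6664), 2334 for Trp (731 to 5091) and 2694 for Cys (1078 to 4108). From high to low the medians of the IDR peaks ran Cys, Tyr, Phe and Trp, and the ranges of neighbours in that order overlapped. In replicate 3 the median of Trp (1902) stood above that of Phe (1625). The Phe genes differ between these lists, however. The IDR median covers the 12 occupied genes, and that of replicate 3 covers 13, including the unoccupied Y95D11A.t1 at 57.6. The replicate 3 median over the occupied Phe genes alone is not given here. The 25th percentiles were 1573 for Phe, 1551 for Tyr, 1640 for Trp and 2275 for Cys.

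All 12 Trp genes were occupied, from 731 to 5091, and all 12 summits lay upstream of the gene. The suppressor locus sup-7 had the highest signal of this set in each list, with 5091 among the IDR peaks, 931 in replicate 1 and 4282 in replicate 3. It lies in an intron of C03B1.2 at chrX:6371378-6371449. Next came sup-5, in an intron of fli-1 at chrIII:8678497-8678568, with 4484 among the IDR peaks, 761 in replicate 1 and 3810 in replicate 3. The order behind them was close, since sup-24 had 3012, 535 and 2512 in the same 3 lists and rtw-6 had 2998, 513 and 2553. The neighbours sup-33 and sup-28, 856 bp apart in an intron of trk-1, had 2358 and 2310 among the IDR peaks, and sup-21 had 2024. At the low end, sup-29 had 1093, 212 and 915, and F49C5.t1, the gene without an A box match, had 731, 124 and 598. Of the 12 genes, 10 have the same sequence, so the 4.66-fold range from sup-29 to sup-7 lay between genes with identical annotated sequences.

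**Figure D2:**
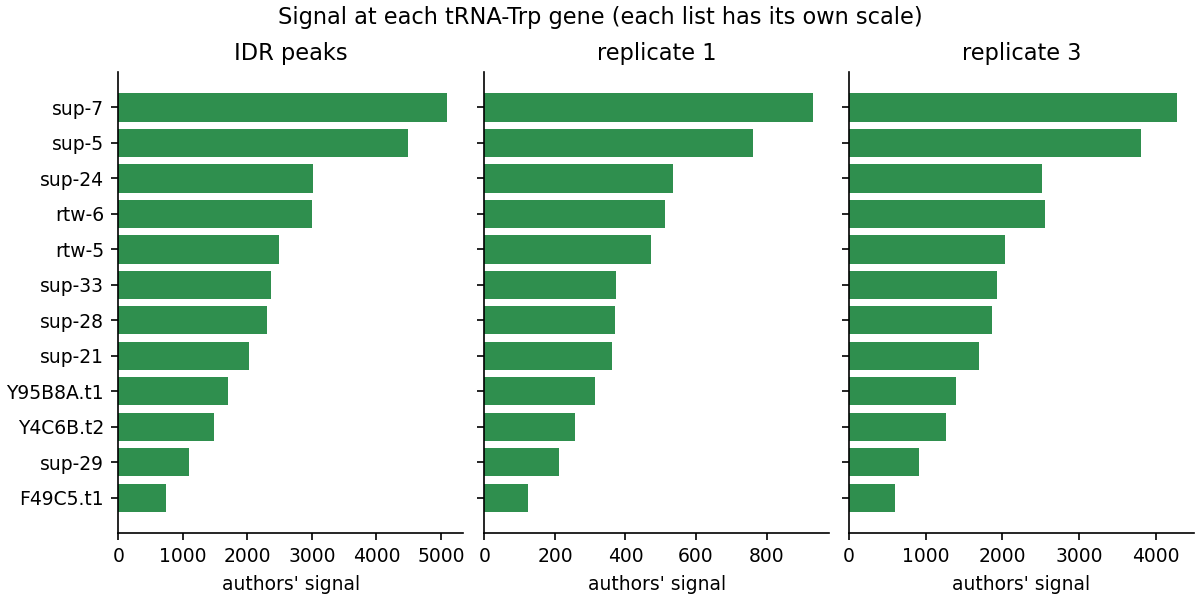
Authors' signal of the strongest summit within 100 bp of each of the 12 Trp genes (bars, from 0) among the IDR peaks and in each replicate's list, each list on its own scale. The order is nearly the same in all 3: sup-7 and sup-5 lead, and sup-29 and F49C5.t1 are lowest, with sup-24 and rtw-6 changing places in replicate 3.

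The 60 bases just upstream of sup-7 (chrX:6371318-6371377, plus strand) and sup-29 (chrIV:3681952-3682011, minus strand) are given 5′ to 3′ because the genes themselves are identical. Capitals mark the 11 bases centred on the IDR summit, which lay 31 bp upstream of the first base in both.
sup-7 upstream: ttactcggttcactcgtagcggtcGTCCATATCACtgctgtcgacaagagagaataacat
sup-29 upstream: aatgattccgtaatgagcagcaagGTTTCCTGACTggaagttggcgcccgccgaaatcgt
Over the last 50 bases before the gene, G and C made up a median of 44% in members and 42% in other tRNA genes.

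Signal also differed among identical copies for the other amino acids. The largest set was that of Cys, with 12 copies of which 11 were occupied, from 1078 at R04E5.t5 to 4108 at C37A2.t1, a range of 3.81-fold. The 10 copies for Phe, of which 9 were occupied, ran 12.9-fold from 375 at T27B1.t1 to 4828 at T28B4.t1. The 6 copies for Tyr, of which 5 were occupied, ran 7.90-fold from 843 at R11.t3 to 6664 at R11.t1. In 44 of the 58 members no stretch of 31 bases is unique in the genome, whereas all 70 such stretches of the 100 bases upstream are unique for 55 members. T27B1.t1, the low end of the Phe range, is not among these 55, with only 19 of the 70 unique. Its IDR summit also lay 24 bp past the end of the gene. How reads from repeated stretches were placed is not given in the sources used here, and its part in these values was not tested.

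Cys genes had the narrowest range. C37A2.t1, in an intron of cye-1 at chrI:6781803-6781874, had 4108 among the IDR peaks, 754 in replicate 1 and 3454 in replicate 3. F42D1.t1, on X outside protein-coding genes, had 3493, 663 and 2865. F12D9.t6, at chrX:8638620-8638691, had 3948 among the IDR peaks with a summit 85 bp upstream, but no summit within 100 bp in either replicate's list, the nearest being 198 bp away in replicate 1 and 125 bp away in replicate 3. It lies 230 bp from F12D9.t1, another Cys gene that runs the other way, and the summits of replicates 1 and 3 fell between both genes. The lowest, R04E5.t5, had 1078, 232 and 1092. T28C12.t1, the only Cys gene of another sequence, differs by G1T and C31T and had an IDR signal of 2278. Such tokens give the base of the commonest spliced sequence for that amino acid, its position from 1 at the 5′ end, and the base of the gene named.

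Among Phe genes, T28B4.t1 in an intron of fbxl-4 had 4828 among the IDR peaks, 910 in replicate 1 and 4015 in replicate 3. F32A6.t1, in an intron of sto-2 on X with G6A and C67T, had 4166, 785 and 3454. Y39B6A.t9, on V, had 4130, 743 and 3461, and Y53C12A.t1, on II, had an IDR signal of 1706; both carry T27C and A43G. A pair of altered bases was thus found both near the top and below the median of the Phe genes. The lowest occupied gene, T27B1.t1, had 375, 75.9 and 336, with its IDR summit 96 bp downstream of its first base. T25D1.t2, of the same sequence and 506 bp away, had no IDR summit within 100 bp. The 81 bases upstream of these neighbours are identical, and only 19 of the 70 stretches counted there are unique in the genome.

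All 19 Tyr genes, and no other member, have an annotated intron, of 11 bases in each. Of the 19, 16 were occupied (84.2%), against 36 of the 39 members without an intron (92.3%) and 10 of 10 other tRNA genes with an intron. The median signal of members was 2508 with an intron and 2426 without. For other tRNA genes it was 3770 with an intron, over only 10 genes, and 2597 without. There were 9 different introns, and 8 of them are shown, because the spliced parts of these genes vary less than their introns do. Each is given with the gene of highest signal that carries it, 5′ to 3′ on the strand of the gene.
R11.t1 (chrX:16209805-16209815, minus, 8 genes): agtcagcaggt
C16D9.t4 (chrV:8247518-8247528, plus, 3 genes): agtcagtgggt
T22F7.t1 (chrIII:535419-535429, plus, 2 genes): agttagcaggt
K09A11.t1 (chrX:13264719-13264729, minus, 1 gene): agtcagcgggt
ZK1067.t1 (chrII:9211840-9211850, minus, 1 gene): agtcagtggtt
F31E9.t1 (chrV:17317915-17317925, minus, 1 gene): agttagcagat
C18D4.t1 (chrV:17542482-17542492, minus, 1 gene): agttggcagat
C47E8.t1 (chrV:14689569-14689579, plus, 1 gene): agtttgcagat
R11.t1 had 6664 among the IDR peaks, 1187 in replicate 1 and 5515 in replicate 3, and ranked 13 of the 1550 IDR peaks, above every other member. K09A11.t1 had 5275, 985 and 4347, and C02B4.t2, in an intron of nhr-17, had 5098, 934 and 4288. These leaders carry 2 different introns. The lowest, C06B8.t2, had 614 among the IDR peaks with its summit 76 bp inside the gene, 45.4 in replicate 1 and 22.1 in replicate 3. It carries A49G and T65C, as does C16D9.t4 with an IDR signal of 1612, while ZK1067.t1, with C2A besides these changes, had 2781. R04D3.t4 (C67G) had 2565 and F31E9.t1 (G27C) had 1992. Trp genes had single changes in rtw-5 (G45A, 2490) and in F49C5.t1 (G18A, 731).

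The 3 members whose spliced sequence has inserted or deleted bases were all unoccupied. They are R148.t1 and F36D4.t1 for Tyr and Y95D11A.t1 for Phe. Of the other 55 members 52 were occupied, including 11 of 11 with substitutions alone and 41 of 44 with the commonest sequence. Against the closest sequence that has at least 2 copies for the same amino acid, 0 of 3 members with inserted or deleted bases were occupied, and 16 of 38 other tRNA genes with such bases were (42.1%); with substitutions alone 60 of 76 other tRNA genes were (78.9%), and without any change 394 of 434 (90.8%). This split was chosen after the values were seen. The Tyr genes R148.t1 (chrIII:3195439-3195520, plus strand) and F36D4.t1 (chrV:9412205-9412291, minus strand, in an intron of F36D4.4) are printed to show it. Capitals mark bases that are changed or added relative to the commonest Tyr gene sequence, which is that of R11.t1; deleted bases leave no mark.
R148.t1: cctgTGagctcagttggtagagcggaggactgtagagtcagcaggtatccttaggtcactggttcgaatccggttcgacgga
F36D4.t1: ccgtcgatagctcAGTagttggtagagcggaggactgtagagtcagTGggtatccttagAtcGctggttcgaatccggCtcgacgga
R148.t1 has 2 substituted and 2 deleted bases. F36D4.t1 has 3 inserted bases and 5 substituted ones, 2 of them in the intron. F36D4.t1 had no summit within 300 bp in any of the lists, and its nearest IDR summit was 4855 bp away. R148.t1 had a signal of 48.2 in the pooled list and 33.0 in replicate 3, and no summit within 100 bp in replicate 1.

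Y95D11A.t1, at chrI:10945821-10945893, has 3 substituted, 1 inserted and 1 deleted base, and it is also the member without TTTT. Its signal was 53.9 in the pooled list and 57.6 in replicate 3, with no summit within 100 bp in replicate 1, and its nearest IDR summit was 18279 bp away.

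The other 3 unoccupied members have the commonest sequence and a tRNA gene close by. K01A12.t5 (Cys, chrX:8623764-8623835) lies 88 bp from K01A12.t1 (Arg), T25D1.t2 (Phe, chrX:16523344-16523416) lies 506 bp from T27B1.t1, and R11.t2 (Tyr, chrX:16209228-16209311) lies 319 bp from R11.t3. Their nearest IDR summits were 296, 152 and 285 bp away. In the pooled list T25D1.t2 had a summit 48 bp away with a signal of 88.8, and the other 2 had none within 100 bp.

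Summit positions spread more widely among members with another tRNA gene within 1000 bp than among the rest. This split was also chosen after the values were seen. Of the 39 members with no such neighbour 36 were occupied (92.3%), all 36 summits lay 15 to 42 bp upstream of the first base, and all 36 were found among the 1550 highest regions of both replicates. Of the 19 members with a neighbour 16 were occupied (84.2%), 12 summits lay upstream and 13 of the genes were found in both replicates. The IDR positions of these 16 ran between -85 and 98 bp, counted along the gene with 0 at its first base. Among other tRNA genes 306 of 337 without a neighbour (90.8%) and 166 of 217 with a neighbour (76.5%) were occupied. The summits of the 306 ran between -57 and 101 bp, with 270 of them 15 to 45 bp upstream, and 67 of the 166 lay in that band, as did 9 of the 16 members with a neighbour. The median signal was 2626 for members without a neighbour and 2182 for those with one.

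The summit lay just upstream of the gene in nearly every occupied member. It was upstream in 48 of 52, against 86.6% of all occupied tRNA genes, and between 45 and 15 bp upstream in 45 of 52, against 337 of 472 other occupied tRNA genes; over all occupied tRNA genes the share was 72.9%. Measured from the first base, the median position was -26 bp for members and -24.5 bp for other tRNA genes in the IDR peaks, and -26 bp and -25 bp for members in replicates 1 and 3. The 4 summits on the downstream side belonged to F12D9.t1, K01A12.t2, T27B1.t1 and C06B8.t2, all of which have a tRNA gene within 1000 bp. K01A12.t2 was the only member whose summit also lay within 100 bp of another tRNA gene, K01A12.t3 (Arg).

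**Figure D3:**
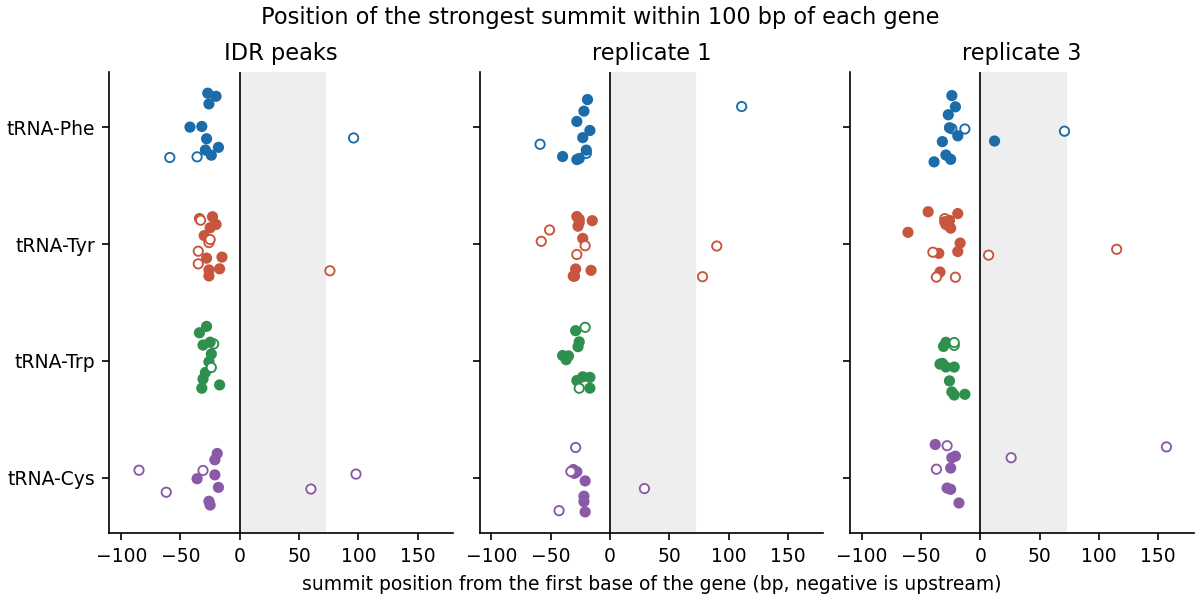
Position of the strongest summit within 100 bp of each member, in bp along its own strand with 0 at the first base, for the IDR peaks, replicate 1 and replicate 3. Points are genes in rows by amino acid, with random height inside a row; filled points have no other tRNA gene within 1000 bp, and the grey band is the length of a 72 bp gene. Filled points lie between -42 and -15 bp in the IDR peaks; in replicate 3, 2 genes without an IDR peak stand apart among them, R148.t1 at -61 bp and Y95D11A.t1 at 12 bp.

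The R11 genes show how copies of 1 Tyr gene side by side can differ. The 4 genes lie on the minus strand of X in the order R11.t1, R11.t2, R11.t3 and R11.t4 and have the same gene sequence. R11.t1 had 6664, 1187 and 5515 among the IDR peaks and in replicates 1 and 3. R11.t3 had 843, 57.5 and 733, and R11.t4 had 885, 134 and 660. The R11.t3 summit lay 35 bp upstream of the first base among the IDR peaks, but 90 and 7 bp downstream in replicates 1 and 3. R11.t2 had no summit within 100 bp in any list. The 60 bases upstream of each are printed because the genes themselves are identical; capitals in the stretches of R11.t3 and R11.t4 mark bases that differ from R11.t2.
R11.t1 upstream (chrX:16209853-16209912): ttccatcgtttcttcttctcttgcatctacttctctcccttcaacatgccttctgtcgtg
R11.t2 upstream (chrX:16209312-16209371): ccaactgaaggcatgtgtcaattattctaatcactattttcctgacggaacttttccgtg
R11.t3 upstream (chrX:16208909-16208968): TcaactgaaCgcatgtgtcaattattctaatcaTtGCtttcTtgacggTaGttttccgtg
R11.t4 upstream (chrX:16208347-16208406): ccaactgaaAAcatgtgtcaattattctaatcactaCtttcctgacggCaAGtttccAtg
R11.t3 and R11.t4 match R11.t2 at 52 and 53 of the 60 positions, and R11.t1 matches it at 19. All 70 stretches of 31 bases upstream of each of the 4 genes are unique in the genome.

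**Figure D4:**
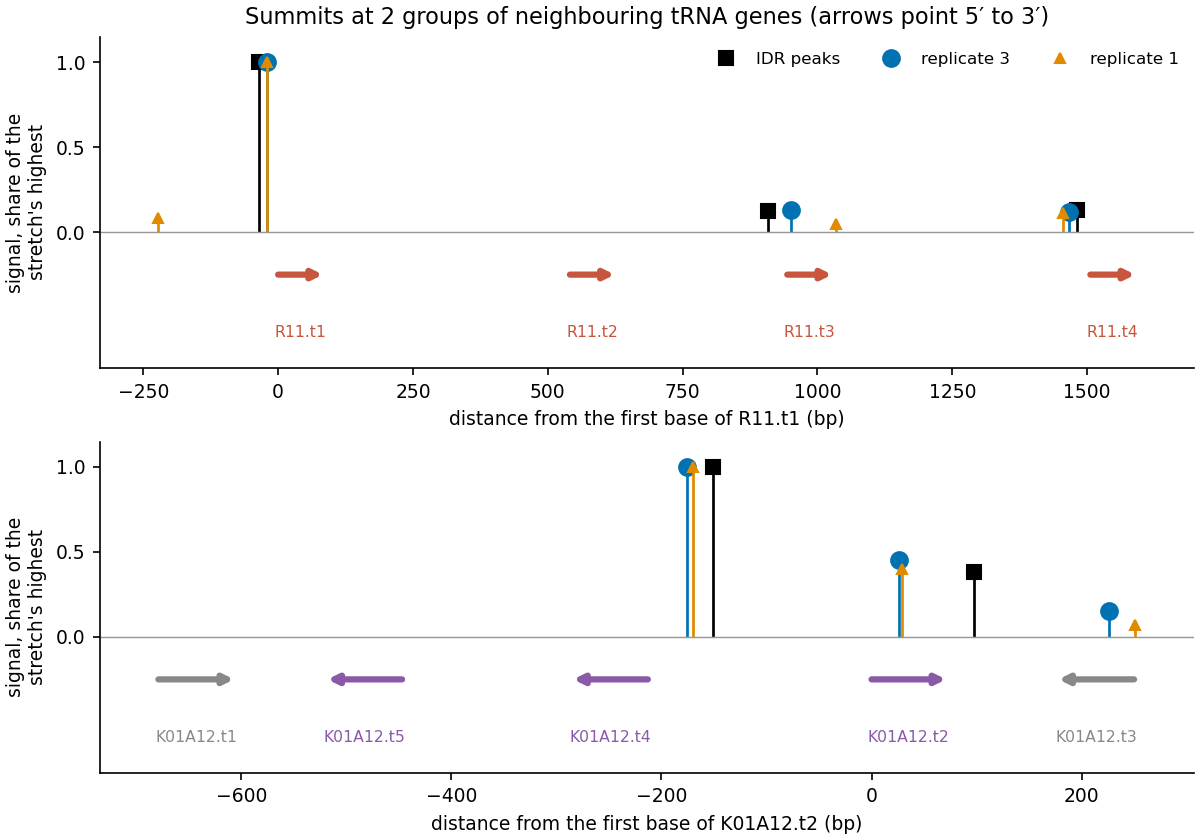
Summits (markers on lines) at the 4 R11 genes (Tyr, upper panel) and at the K01A12 genes (Cys in purple, Arg in grey, lower panel), by distance in bp from the first base of R11.t1 and of K01A12.t2; height is the signal as a share of the highest in the same list and stretch. The highest summit of each list is upstream of R11.t1 in the upper panel and between K01A12.t4 and K01A12.t2 in the lower one, and no marker is near R11.t2 or K01A12.t5.

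The 5 K01A12 genes, 3 for Cys and 2 for Arg, lie in intron sequence of K01A12.3. K01A12.t4 had 2968 among the IDR peaks, 590 in replicate 1 and 3055 in replicate 3, with its IDR summit 62 bp upstream and 151 bp before the first base of K01A12.t2, which runs away from it. K01A12.t2 had 1127, 237 and 1390. Its summit was 98 bp downstream of the first base among the IDR peaks, but 29 and 26 bp downstream in replicates 1 and 3. K01A12.t5 had no summit within 250 bp in any list.

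The replicates ranked the members alike. Over the 51 members with a summit within 100 bp in both lists, Spearman's rho of the signals was 0.945, and it was 0.983 over the 36 of them without a neighbouring tRNA gene. It was 0.993 for Phe (12 genes), 0.971 for Tyr (16), 0.993 for Trp (12) and 0.636 for Cys (11), and 0.980 over 478 other tRNA genes. These are correlations across genes, whose points share libraries and peak calling, and serve as a description. The largest change of order among Cys genes was that of F12D9.t1, at rank 145 in the replicate 1 list and rank 528 in that of replicate 3. Its values came from different summits, 33 bp upstream and 157 bp downstream of its first base. The Cys value without this gene was not computed, so 0.636 does not show how alike the replicates ranked the other Cys genes. The number in the list of replicate 3 was 4.65 times that in replicate 1 at the median, and 3.92 to 5.10 times among the 36. Each list has its own scale, so this ratio gives no difference in level and shows only how evenly the lists scale. Outside that range stood members with a neighbour, from 0.487 times at C06B8.t2 to 12.8 times at R11.t3. In both of these genes the replicates' summits lay apart. Downstream of the first base they were at 78 and 115 bp in C06B8.t2, and at 90 and 7 bp in R11.t3, for replicates 1 and 3. The summits of both replicates lay within 10 bp of each other in 40 of the 51 members and in 32 of the 36, where the largest difference was 15 bp.

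**Figure D5:**
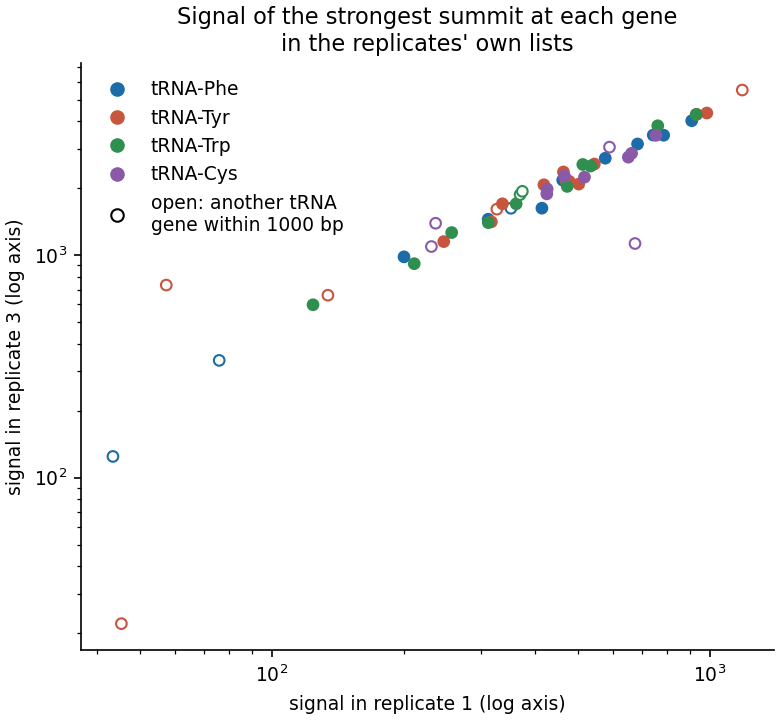
Signal in replicate 3 against that in replicate 1 (both log axes, authors' units of each list) for the 51 members with a summit in both lists, coloured by amino acid; open points have another tRNA gene within 1000 bp. Filled points follow a narrow band at 3.92 to 5.10 times the replicate 1 value, and the points away from it are open.

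By chromosome, X held 26 of the 58 members. Of these 23 were occupied (88.5%, median signal 2490), against 29 of 32 on the autosomes (90.6%, median 2452). Among other tRNA genes the share was 83.6% on X (median 2822) and 86.5% on the autosomes (median 2394). Chromosomes I to V held 4 of 5, 3 of 3, 7 of 8, 4 of 4 and 11 of 12 occupied members. The Trp genes on X ran from 2024 to 5091 and those on autosomes from 731 to 4484, so they overlap.

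Introns of protein-coding genes held 30 members, and none lay in an exon. Of those inside introns 28 were occupied (93.3%, median signal 2756), against 24 of the 28 outside protein-coding genes (85.7%, median 2145). The other tRNA genes had 86.7% inside protein-coding genes (median 2403) and 83.8% outside (median 2669), so the medians lay in the opposite order there. Within the 30, 20 of 22 on the strand of the host were occupied (median 2970) and 8 of 8 on the other strand (median 2188). For other tRNA genes inside protein-coding genes the share was 87.2% on the strand of the host (median 2239). It was 86.2% on the other strand (median 2690), so these medians also lay in the opposite order to those of the members.

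A list of 10 protein-coding genes that serve these tRNAs was also looked at, of which 8 were matched by symbol and wars-2 and cars-2 were not. Those matched were the synthetases that load these amino acids, cytosolic fars-1, fars-3, yars-1, wars-1 and cars-1 and mitochondrial fars-2 and yars-2, and the ligase rtcb-1, which joins the parts of spliced tRNAs. In a window reaching 500 bp before and 100 bp past the start, 0 of these 8 had an IDR summit. The share over all protein-coding genes was 1.84%, so a count of 0 among so few is no result about them.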

How the data were processed

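ChIP-seq peak lists of 2 replicates in build ce11 were used. Per the deposited file descriptions, the authors made a ranked list of regions per replicate and from both pooled, against a control, and derived the IDR peaks from these. Aligner, peak caller and threshold are not given in the sources used here. The deposited signal has no stated normalisation. The −log10 q-value the authors deposited was read and not used. The ce10 lists were not used here.

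Summits, counted from 1, were set against RefSeq genes of WBcel235 (WormBase release 298). Counts, medians and ranges of the 58 genes were set beside those of the other tRNA genes; Wilson intervals cover counting of genes only. Sequence changes came from global alignment (Biopython 1.88). The assignment of summits to genes was tested on simulated summits. Gene sequences for Trp and Cys are not reported here. Named were, per amino acid, the 3 genes of highest signal, the lowest occupied gene, each unoccupied gene and the highest and lowest identical copies; others named were chosen after their values were seen. Genes, lists and this rule were chosen with earlier results of these data known. Tools were pandas 2.3.3, numpy 2.4.6, Python 3.11.15, matplotlib 3.10.9 and scipy 1.17.1.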

Additional observations from a re-analysis of the deposited data

How the results depend on the processing

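Of 68 values recomputed under other settings, 59 moved by less than their tolerance, which was 1.5 times for counts and the spread between replicates for the others. The counts were too near their totals to rise 1.5 times, so wider settings could not move them. The spread came from the settings that leave out a replicate, which are themselves among the 68. The number 59 is therefore no measure of robustness. The count of 52 occupied members was 49 at 50 bp and 53 at 250 bp, 51 with the 775 IDR peaks of highest signal, 43 with overlapping regions merged and 55 in the whole pooled list. With either replicate left out it was 49. At 25 bp it was 22, with 4 for Phe, 7 for Tyr, 5 for Trp and 6 for Cys, and the median position was -20.5 bp; the summits lay about 26 bp upstream, so this distance removes them by its construction. Leaving out a replicate gave median positions from -26 to -25 bp and ratios of median signal, members over other tRNA genes, from 0.948 to 1.01. Without genes that have another tRNA gene within 1000 bp, an alternative chosen after the data were seen, the ratio was 0.999. The cause of the moved ratios was not tested. No paired analysis was possible because there was 1 group. Limits are the unknown read depth, the repeated gene sequences, and summits that neighbouring genes can share.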
